A study of Mus musculus with 8 samples.

Results

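The genes described here encode ion channels and receptors for neurotransmitters, and they were followed in mouse embryonic stem cells whose ERK signalling was switched with drugs. They were taken by name: potassium, HCN, sodium and calcium channel subunits, glutamate, GABA, glycine and nicotinic acetylcholine receptor subunits, P2X receptors, ryanodine receptors and IP3 receptors. The array held 221 such genes, and 109 of them, among 22693 genes and unnamed features tested, were kept, because in 1 group or more both arrays measured them well above background. Each of 4 groups had 2 arrays, called replicate 1 and replicate 2. All cells, the controls included, grew in embryonic stem cell medium with LIF, which keeps these cells undifferentiated, and with PD173074, which blocks FGF receptors, at 250 nM. Besides untreated cells there were cells after 8 h of 4-hydroxytamoxifen at 250 nM (4OHT 8h) and after 10 h of it (4OHT 10h). The last group, called inhibited cells, had 8 h of 4OHT followed by 2 h of the MEK kinase blocker PD0325901 at 1 µM. 4OHT acts on proteins fused to an altered oestrogen receptor. The labels name no such protein and no cell line, and they do not say whether 4OHT stayed on the cells during inhibition. Erk, in the title of the series, is the kinase activated by MEK.

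Channels of these families let potassium, sodium, calcium or mixed cations, or in the case of GABA-A and glycine receptors chloride, cross a membrane, and they open with voltage, with a bound transmitter or with calcium and other messengers inside the cell. Pore-forming alpha subunits make the channel, and auxiliary beta, gamma, alpha2delta and KChIP subunits change its opening or its transport to the surface. They are best known from neurons, muscle and sensory cells, where they carry electrical signals, but potassium channels and calcium release channels of the endoplasmic reticulum also set membrane voltage and calcium in dividing cells.

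A level here is the log2 of a signal over the 75th percentile of its array. Differences between groups carry the standard error that limma gave (±), with p-values adjusted across all features. Unless a replicate block is named, the fit left out the replicate number. A replicate block is the same fit with that number added. Levels belong to 1 probe and were compared between groups, not between genes. The 2 arrays of a group limit the precision, and the p-values measure the spread of these samples alone, which may be technical: the design text speaks of biological replicates and no label says how the cultures were separated. In these bulk samples fewer cells with a transcript and less transcript per cell cannot be told apart. Arrays of replicate 1 had 36889 to 37789 spots well above background and arrays of replicate 2 had 30218 to 31433. All 8 embryonic stem cell markers examined were well above background on all 8 arrays, but not all were steady. Nanog, a pluripotency factor, was at 4.78 and 4.83 in untreated cells, 2.31 and 2.12 at 4OHT 8h, 1.93 and 1.48 at 4OHT 10h and 3.54 and 3.19 in inhibited cells, a difference of -3.10 ± 0.19 at 4OHT 10h (adjusted p = 0.000427) and of 1.66 ± 0.19 in inhibited cells against 4OHT 10h (adjusted p = 0.00996). The part of this in the members' changes was not tested. Of 9 ERK feedback genes taken as a check of the groups, 9 rose at 4OHT 10h (median difference 3.36) and 8 fell in inhibited cells against 4OHT 10h (median -2.64). Of 13 neuron markers, 10 were kept, and their summed level was 5.78 to 6.06 in untreated cells, 5.49 to 5.60 at 4OHT 8h, 5.67 to 5.81 at 4OHT 10h and 5.91 to 5.94 in inhibited cells. The largest part of that sum was Stmn2, between 4.8 and 5.32 on the 8 arrays. The median of the 10 was lower on every treated array than on either untreated array. It was 0.63 and 0.54 at 4OHT 8h, 0.70 and 0.59 at 4OHT 10h and 0.77 and 0.63 in inhibited cells.

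Of the 109 genes kept, 77 were well above background on all 8 arrays. A further 19 were kept through 1 group only, 10 of them through untreated cells, 1 through 4OHT 8h and 8 through inhibited cells. Such a gene had to be higher in the group that kept it, so counts over the kept genes are given beside the same counts over genes measured on all 8 arrays. Of the 112 genes not kept, 63 were well above background on no array. Just outside the threshold lay Kcnc4, well above background on 4 arrays, with levels of -3.80 and -4.27 in untreated cells and of -4.90 to -4.36 elsewhere. Just inside lay Chrna7, with -3.76 and -3.81 in untreated cells and -5.27 to -4.29 elsewhere. Kcnq1 and Gria3 were not kept. The name rule also took in Grid2ip, a protein that binds a glutamate receptor, and Kcnq1ot1, a non-coding RNA.

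Promoter windows, from 250 bases before to 50 after the start of the transcript, are shown for 5 genes on which the results turn: Grm6 and P2rx7, which rose after 4OHT, Chrna9 and Chrnb4, which rose after 4OHT and fell under PD0325901, and Grin2c, which fell after 4OHT and rose under PD0325901. The sequences are RefSeq's for build GRCm38.p6, read 5′ to 3′ along the gene's own strand. Capitals mark matches to the motif letters searched on both strands, and lower case everything else.
Grm6, chr11:50850435-50850734, plus strand: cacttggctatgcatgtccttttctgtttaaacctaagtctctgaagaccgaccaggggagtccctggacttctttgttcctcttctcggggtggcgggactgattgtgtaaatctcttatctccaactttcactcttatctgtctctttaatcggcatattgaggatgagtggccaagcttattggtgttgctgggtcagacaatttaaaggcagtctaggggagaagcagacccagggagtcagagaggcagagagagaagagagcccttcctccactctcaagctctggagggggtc
P2rx7, chr5:122643677-122643976, plus strand: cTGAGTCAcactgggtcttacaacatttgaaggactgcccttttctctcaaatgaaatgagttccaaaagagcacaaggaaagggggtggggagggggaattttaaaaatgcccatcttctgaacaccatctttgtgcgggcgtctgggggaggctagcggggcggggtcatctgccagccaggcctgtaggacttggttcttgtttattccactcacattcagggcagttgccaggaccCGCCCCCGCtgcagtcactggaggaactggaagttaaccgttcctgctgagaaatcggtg
Chrna9, chr5:65966874-65967173, plus strand: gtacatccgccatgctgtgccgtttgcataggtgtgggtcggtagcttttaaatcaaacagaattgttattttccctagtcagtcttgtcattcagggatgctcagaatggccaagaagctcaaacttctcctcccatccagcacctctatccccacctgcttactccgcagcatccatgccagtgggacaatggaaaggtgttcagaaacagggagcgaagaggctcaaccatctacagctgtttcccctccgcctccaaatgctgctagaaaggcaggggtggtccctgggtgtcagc
Chrnb4, chr9:55048495-55048794, minus strand: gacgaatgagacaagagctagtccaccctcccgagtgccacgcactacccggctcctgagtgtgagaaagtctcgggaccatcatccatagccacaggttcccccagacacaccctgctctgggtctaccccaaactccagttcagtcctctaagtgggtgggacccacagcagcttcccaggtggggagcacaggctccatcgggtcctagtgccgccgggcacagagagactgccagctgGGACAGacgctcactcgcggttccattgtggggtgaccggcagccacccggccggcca
Grin2c, chr11:115267194-115267493, minus strand: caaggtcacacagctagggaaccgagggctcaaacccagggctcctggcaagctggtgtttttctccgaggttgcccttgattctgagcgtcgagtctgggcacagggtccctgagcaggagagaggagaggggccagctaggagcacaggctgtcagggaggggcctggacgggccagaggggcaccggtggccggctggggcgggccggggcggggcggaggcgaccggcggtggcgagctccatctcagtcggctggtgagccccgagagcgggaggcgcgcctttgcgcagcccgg
The letters searched were TGANTCA for AP-1, TGACGTCA for the cyclic AMP response element, CCGGAA for ETS factors, GCGNGGGCG for EGR factors and GGACAG for the right part of the REST site. None of these motifs holds another of them whole. P2rx7 held the AP-1 letters at position 2 and the EGR letters at position 241, counted from the 5′ end of the window, and Chrnb4 held the REST letters at position 243. A further P2rx7 window held none of the letters searched. The windows shown for Grm6, Chrna9 and Grin2c held none of the letters searched. RefSeq windows were found for 78 of the 109 kept genes (93 windows), beside 32851 windows of 27025 genes in all. The AP-1 letters were in 4.3% of the kept genes' windows and 7.8% of all windows. The ETS letters were in 5.4% and 14.9%, the cyclic AMP response element in 0.0% and 1.8%, the EGR letters in 11.8% and 5.6%, and the REST letters in 31.2% and 22.2%. Among the 17 windows of genes that rose at 4OHT 10h, 29.4% held the EGR letters, 11.8% those of AP-1, 11.8% those of ETS factors and 17.6% those of REST. Among the 21 windows of genes that fell the shares were 4.8%, 9.5%, 4.8% and 33.3% in that order. A match describes the letters and is not evidence of a bound site.

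After 8 h of 4OHT, 12 channel and receptor genes were higher and 23 lower of 108 tested, against 10.3% higher and 11.5% lower of all features tested. The members' shares were 11.1% and 21.3%, and among tested genes with a symbol the shares were 12.8% and 14.5%. The share of genes that fell was thus above the background and the share that rose was near it. Among genes well above background on all 8 arrays, 7 rose and 19 fell of 76. The median difference of the members was -0.16, beside -0.04 over all features. The genes that fell included potassium channel and KChIP subunits and the receptor genes Grin2c, Grin1, Grik5, P2rx2, Gabbr1 and Glrb. Of these receptor genes, Grin1 was kept only through untreated cells, where it had to be high. With each array centred on its median, 14 rose and 15 fell, and with the percentile taken over probes detected on all arrays 8 rose and 26 fell, so the split between rises and falls moved with the scaling.

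After 10 h of 4OHT, 16 were higher and 25 lower of 108 tested, against 13.1% and 14.8% of all features. The members' shares were 14.8% and 23.1%, beside 16.2% and 17.6% of genes with a symbol. Among genes on all 8 arrays 10 rose and 20 fell of 76. That is 13.2% and 26.3%, beside 13.5% and 14.7% of all features measured on all 8 arrays. At least 2-fold were 8 of the rises and 15 of the falls, beside 1008 rises and 1108 falls among all 22692 features tested. Centred on the array median, 19 rose and 17 fell, and with the percentile over detected probes 14 rose and 33 fell. No member was called between 4OHT 10h and 4OHT 8h, where 0.0% of all features were called higher and 0.0% lower by limma. At an unadjusted p under 0.05 there were 12 members and 1501 features in that comparison, and 0 members were called in each alternative fit.

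Under PD0325901, compared with 4OHT 10h, 9 members were higher and 2 lower of 109 tested, against 3.25% and 2.87% of all features and 4.2% and 3.5% of genes with a symbol. The members' shares were 8.3% and 1.8%. Among members on all 8 arrays, 8 rose and 2 fell of 77. That is 10.4% and 2.6%, beside 3.1% and 3.0% of all features measured on all 8 arrays. The rises were Grin2c, Kcnj12, Kcnrg, Hcn3, Kcnk5, Kcns3, P2rx7, Kcnn2 and P2rx2, and the falls were the nicotinic subunits Chrna9 and Chrnb4. Of these, Kcnrg had passed the filter only through untreated and inhibited cells, which favours its rise. Against 4OHT 8h, the state from which inhibition began, 9 rose and 4 fell of 108, beside 3.41% and 3.11% of all features. Inhibited cells still differed from untreated cells in 11 rises and 13 falls of 108, beside 7.05% and 8.79% of all features. With a replicate block 19 members were called against 4OHT 10h, 26 against 4OHT 8h and 40 against untreated cells, which is 17.4%, 24.1% and 37.0% of members tested, beside 12.4%, 14% and 27.7% of all features with that block. Against 4OHT 10h, 4 were called without either array of 4OHT 10h, 4 without inhibited replicate 1, 5 without inhibited replicate 2 and 7 without either array of 4OHT 8h.

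**Figure D1:**
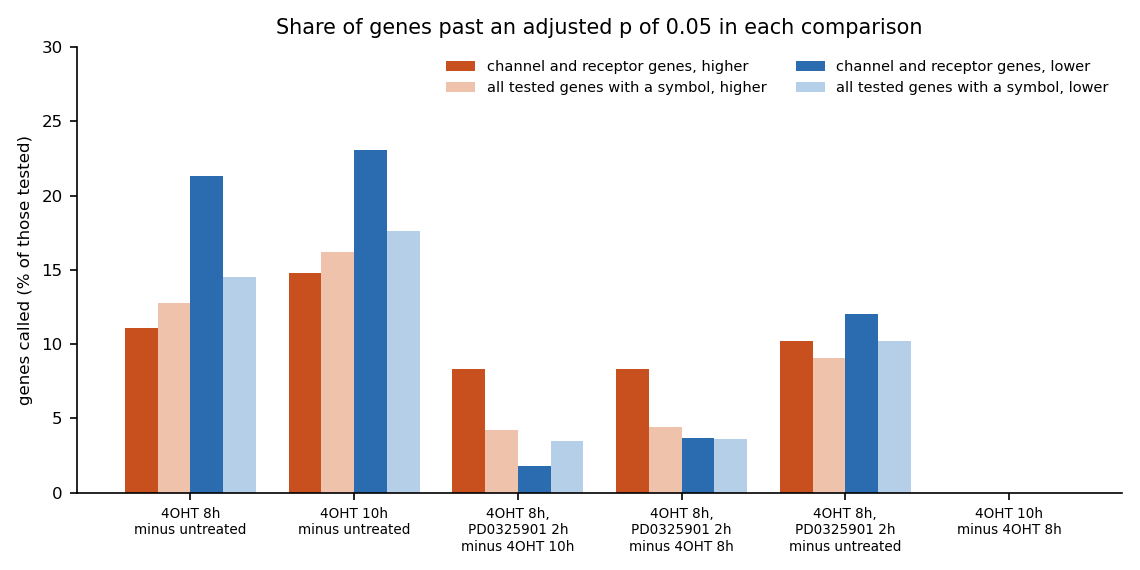
Percent of genes called higher (orange) or lower (blue) at an adjusted p of 0.05 in the 6 comparisons, for the kept channel and receptor genes (dark bars) and for all tested genes with a symbol (light bars). The dark blue bars at 4OHT 8h and 4OHT 10h reach 21.3% and 23.1% against light bars of 14.5% and 17.6%, and the dark orange bar for inhibited cells against 4OHT 10h reaches 8.3% against 4.2%.

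**Figure D2:**
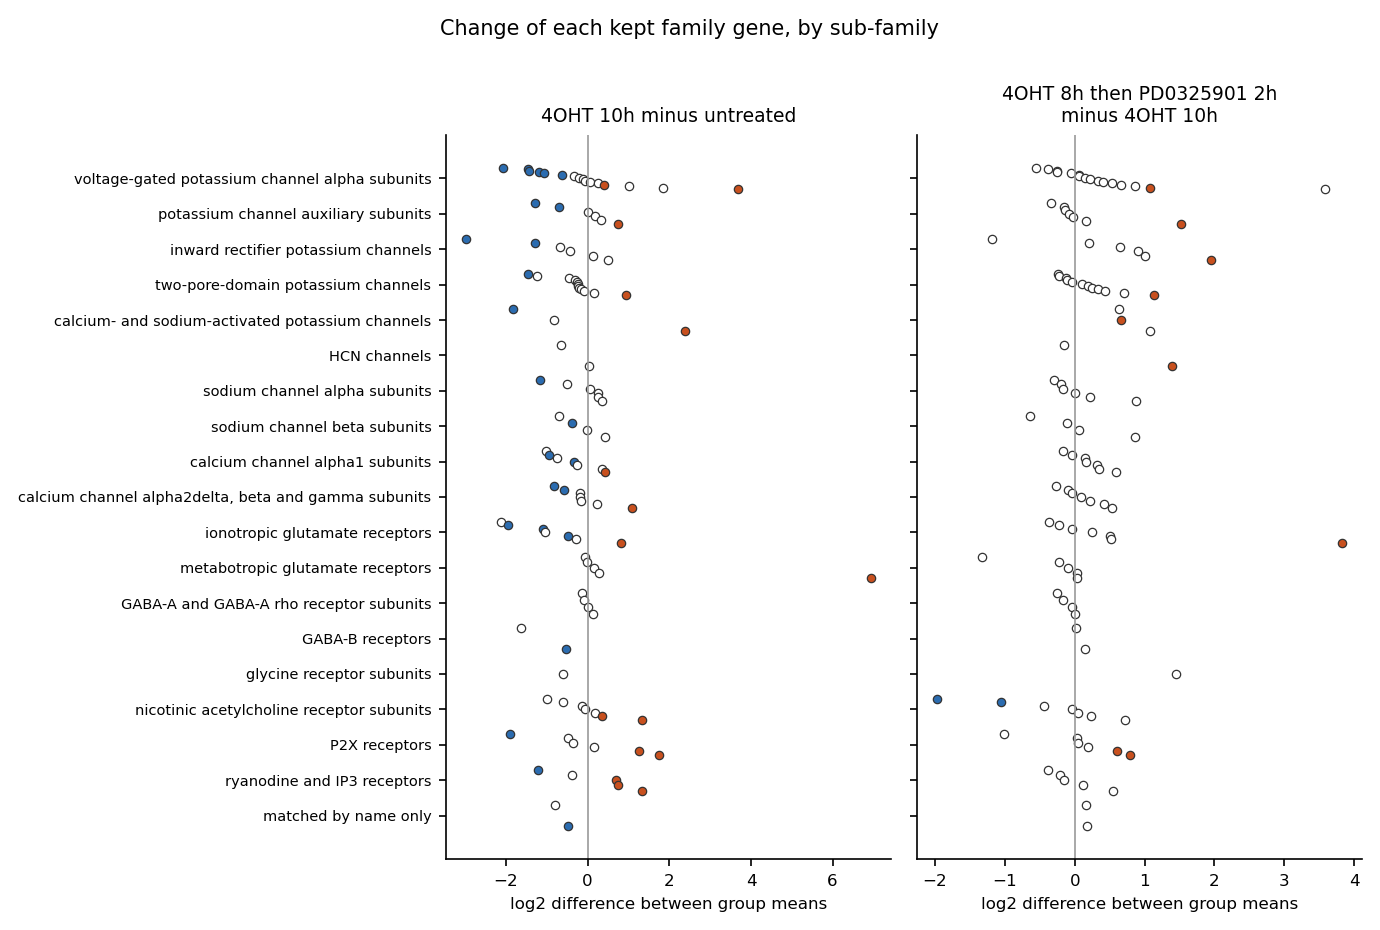
Log2 difference of each kept gene in 4OHT 10h against untreated cells (left) and in inhibited cells against 4OHT 10h (right), by sub-family, with genes called higher in orange, called lower in blue and not called open. Grm6, at least 118-fold higher, is the point farthest right on the left, drawn at its fitted value against a group not well above background. Grin2c lies at -1.94 on the left and 3.82 on the right, and the open point at 3.59 on the right is Kcnh2, whose 2 inhibited arrays differed.

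Receptors for glutamate held the largest rise and the largest reversal. Grm6, a G protein coupled receptor known from ON bipolar cells of the retina, was at -5.45 and -4.30 on the untreated arrays, where it was not well above background, and at 1.65 and 2.01 at 4OHT 8h and 2.01 and 2.12 at 4OHT 10h. The treated arrays lay far above the untreated ones. The rise was at least 99.8-fold at 4OHT 8h (adjusted p = 0.000447) and at least 118-fold at 4OHT 10h (adjusted p = 0.00032), taking as the untreated level, per array, the higher of its own signal and the lowest signal well above background. In inhibited cells Grm6 was at 0.60 and 0.87, below every 4OHT array and at least 46.8-fold above untreated cells (adjusted p = 0.00148). Its difference from 4OHT 10h, -1.33 ± 0.37, was not past the threshold (adjusted p = 0.113, 0.0428 with a replicate block and 0.00579 to 0.346 over the alternatives). Of the other metabotropic receptors kept, Grm2, Grm4 and Grm5 were not called in any comparison, although another kept probe of Grm4 was higher by 0.54 at 4OHT 8h (adjusted p = 0.0489).

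Grin2c encodes an NMDA receptor subunit, of which these receptors carry a pair beside the obligatory subunit encoded by Grin1. Grin2c was at -1.29 and -1.77 in untreated cells, at -3.84 and -3.99 at 4OHT 8h, at -3.23 and -3.71 at 4OHT 10h and at 0.42 and 0.29 in inhibited cells. The inhibited arrays were thus the highest, the untreated arrays next and the 4OHT arrays the lowest, without overlap. It fell by 2.39 ± 0.22 at 4OHT 8h (5.23-fold, adjusted p = 0.00181) and by 1.94 ± 0.22 at 4OHT 10h (3.84-fold, adjusted p = 0.00277). Inhibited cells were higher by 3.82 ± 0.22 than 4OHT 10h (14.1-fold, adjusted p = 0.0015), by 4.27 ± 0.22 than 4OHT 8h (19.3-fold, adjusted p = 0.00125), and by 1.88 ± 0.22 than untreated cells (3.68-fold, adjusted p = 0.0063). Grin1 was well above background on both arrays in untreated cells only, at -3.20 and -3.92, and on 1 array of each other group. Its differences from untreated cells were -1.21 ± 0.28 at 4OHT 8h, -1.098 ± 0.28 at 4OHT 10h and -1.32 ± 0.28 in inhibited cells. Grin1 had passed the filter only through the group where it was high, so these differences are a description.

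Among kainate receptors, glutamate-gated channels, Grik3 and Grik5 moved apart. Grik3 was at 1.25 and 1.47 in untreated cells, 1.71 and 1.83 at 4OHT 8h, 2.14 and 2.23 at 4OHT 10h and 2.14 and 2.14 in inhibited cells. It was higher than untreated on every treated array, by 0.41 ± 0.10 (adjusted p = 0.0352), 0.82 ± 0.10 (adjusted p = 0.00336) and 0.78 ± 0.10 (adjusted p = 0.00791) in that order. Inhibited cells and 4OHT 10h differed by -0.04 ± 0.10 (adjusted p = 0.861). Another kept Grik3 probe differed from untreated cells by 0.11 at 4OHT 8h and 0.54 at 4OHT 10h, not past the threshold (adjusted p = 0.697 and 0.0704). In inhibited cells that probe was higher than in untreated cells by 0.79 (adjusted p = 0.0369). Grik5 was at -1.10 and -1.14 in untreated cells and at -1.65 to -1.59 on the 4 arrays of 4OHT alone, and fell by 0.51 ± 0.07 and 0.49 ± 0.07 (adjusted p = 0.00624 and 0.00563). It stood between them in inhibited cells, at -1.41 and -1.32. Over the 7 ionotropic glutamate receptor genes kept, of 18 on the array, 1 rose and 3 fell at 4OHT 10h, beside 13.1% and 14.8% of all features. The falls include Grin1, kept only through untreated cells.

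The nicotinic acetylcholine receptor genes gave both falls in inhibited cells against 4OHT 10h. Chrna9, a subunit of the receptor on cochlear hair cells, was at 0.56 and 0.90 in untreated cells, 1.92 and 1.88 at 4OHT 8h, 2.10 and 2.01 at 4OHT 10h and 0.07 and 0.09 in inhibited cells. The 4OHT arrays were the highest and the inhibited arrays the lowest, with no overlap between them or with untreated cells. The rise was 1.17 ± 0.12 at 4OHT 8h (2.25-fold, adjusted p = 0.00272) and 1.32 ± 0.12 at 4OHT 10h (2.5-fold, adjusted p = 0.0015). Against 4OHT 10h inhibited cells fell by 1.97 ± 0.12 (3.93-fold, adjusted p = 0.00181). They were also below untreated cells, with a difference of -0.65 ± 0.12 (adjusted p = 0.0234).

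Chrnb4, a subunit of ganglionic nicotinic receptors, had the same order of groups over a smaller range. It was at -2.12 and -2.03 in untreated cells, -1.83 and -1.84 at 4OHT 8h, -1.71 and -1.73 at 4OHT 10h and -2.76 and -2.80 in inhibited cells. It rose by 0.35 ± 0.07 at 4OHT 10h (1.28-fold, adjusted p = 0.0147). In inhibited cells it fell by 1.06 ± 0.07 against 4OHT 10h (2.08-fold, adjusted p = 0.00195) and stood lower than in untreated cells by -0.70 ± 0.07 (adjusted p = 0.00387). The other 5 nicotinic subunits kept, of 16 on the array, were not called in any comparison without a replicate block. With the block Chrna7 was lower at 4OHT 8h and 4OHT 10h than in untreated cells, the only group that kept it. Chrnb2 was then higher in inhibited cells, the only group that kept it, than at 4OHT 8h and in untreated cells. The filter selected both genes for these directions, so the differences are a description.

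ATP-gated P2X receptors moved in both directions. P2rx5 was at -0.48 and -0.99 in untreated cells, 1.11 and 1.59 at 4OHT 8h, 0.78 and 1.25 at 4OHT 10h and -0.02 and 0.01 in inhibited cells. It rose by 2.08 ± 0.26 at 4OHT 8h (4.24-fold, adjusted p = 0.00455) and 1.74 ± 0.26 at 4OHT 10h (3.35-fold, adjusted p = 0.00642). The inhibited arrays lay between, lower than 4OHT 8h by -1.36 ± 0.26 (adjusted p = 0.0399) and lower than 4OHT 10h by -1.02 ± 0.26, which did not pass (adjusted p = 0.0894).

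P2rx7, the P2X receptor that needs the most ATP and is known from immune cells, was at -2.63 and -2.45 in untreated cells, -1.79 and -1.75 at 4OHT 8h, -1.45 and -1.12 at 4OHT 10h and -0.61 and -0.38 in inhibited cells. The 4 groups did not overlap, and the inhibited arrays were the highest. The rises against untreated cells were 0.78 ± 0.14 (adjusted p = 0.0161), 1.26 ± 0.14 (adjusted p = 0.00288) and 2.05 ± 0.14 (adjusted p = 0.0017). The inhibited arrays were also higher than 4OHT 10h, by 0.79 ± 0.14 (adjusted p = 0.0379), but another P2rx7 probe that passed the filter differed by -0.04 there (adjusted p = 0.877). That probe had risen by 1.24 at 4OHT 8h and 1.18 at 4OHT 10h (adjusted p = 0.00173 and 0.00161). The probes thus gave the same direction for 4OHT and different results for PD0325901.

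P2rx2, a P2X receptor of sensory and autonomic neurons, was at -0.51 and -0.66 in untreated cells, -2.20 and -2.25 at 4OHT 8h, -2.44 and -2.55 at 4OHT 10h and -1.79 and -1.98 in inhibited cells. The fall of 1.65 ± 0.10 at 4OHT 8h (3.13-fold, adjusted p = 0.000615) and 1.91 ± 0.10 at 4OHT 10h (3.76-fold, adjusted p = 0.000317) was partly reversed in inhibited cells, which were higher than 4OHT 10h by 0.61 ± 0.10 (adjusted p = 0.0295) and lower than untreated cells by -1.30 ± 0.10 (adjusted p = 0.00231). P2rx4 was between -0.78 and -0.16 on all arrays and was not called.

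**Figure D3:**
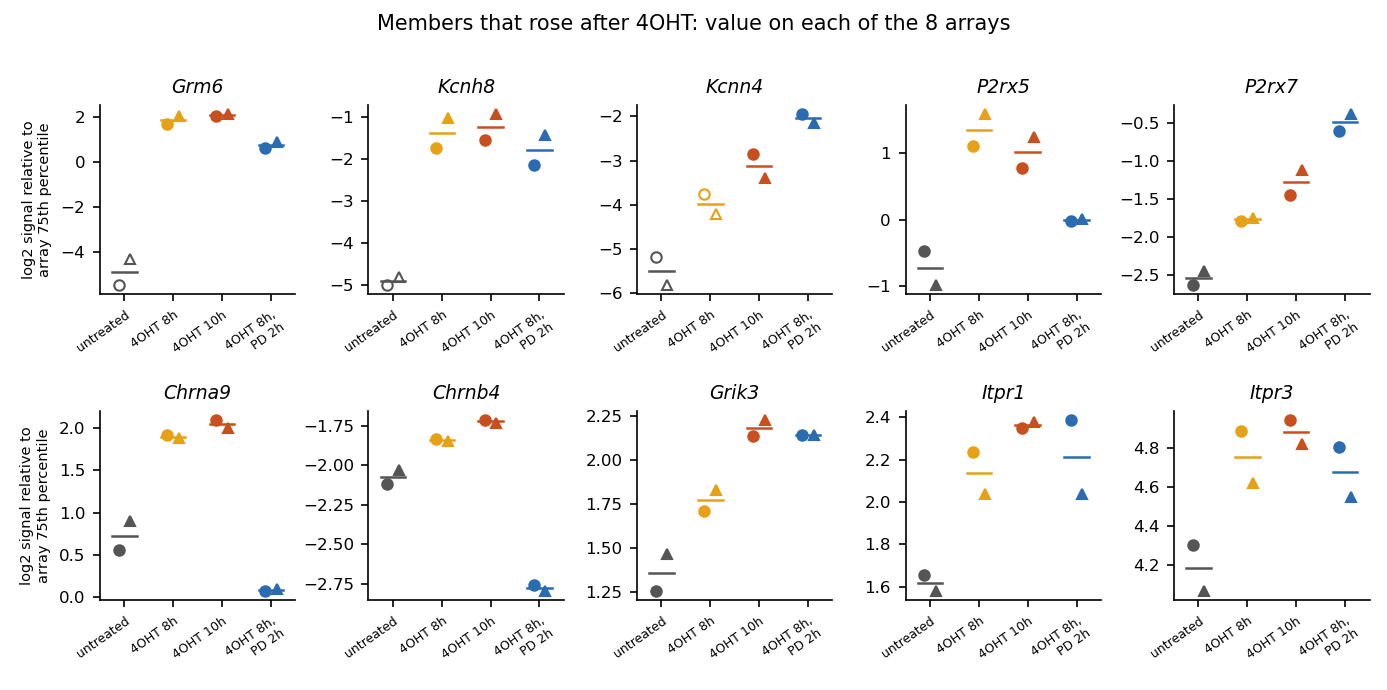
Level on each of the 8 arrays of 10 genes that rose after 4OHT (log2 signal relative to the array's 75th percentile), with replicate 1 as circles, replicate 2 as triangles, group means as bars and open symbols where a group was not well above background on both arrays. Chrna9 and Chrnb4 drop below their untreated level in inhibited cells, and P2rx7 and Kcnn4 are highest there.

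Few receptor genes for GABA and glycine were kept. Gabbr1, a subunit of the G protein coupled GABA-B receptor, was at 1.56 and 1.64 in untreated cells, 1.15 and 1.28 at 4OHT 8h, 1.15 and 0.99 at 4OHT 10h and 1.06 and 1.11 in inhibited cells. It fell by 0.38 ± 0.09 at 4OHT 8h and 0.53 ± 0.09 at 4OHT 10h (adjusted p = 0.0348 and 0.0105) and was lower by -0.52 ± 0.09 in inhibited than in untreated cells (adjusted p = 0.0195). Its 2 other kept probes gave -0.23 and -0.28 at 4OHT 10h, not past the threshold (adjusted p = 0.247 and 0.15), and were lower in inhibited than in untreated cells (-0.54 and -0.53, adjusted p = 0.0484 and 0.0426). Of 19 GABA-A and rho subunit genes on the array 4 were kept. Gabrr2, a rho subunit, was between 2.53 and 2.83 on all arrays and was not called, and Gabrr1 rose by 0.45 ± 0.10 at 4OHT 8h (adjusted p = 0.0261) and not at 4OHT 10h (-0.09 ± 0.10, adjusted p = 0.53). Gabrr1 was also lower in inhibited cells than at 4OHT 8h, with a difference of -0.54 ± 0.10 (adjusted p = 0.0337).

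Glrb, the beta subunit of glycine receptors, was well above background on both arrays in inhibited cells only, at -3.16 and -3.70. It was at -4.11 and -4.41 in untreated cells, -5.35 and -6.51 at 4OHT 8h and -4.82 and -4.93 at 4OHT 10h, with 1 array of each well above background. Glrb was thus kept only through the group where it was high and had to differ, so its levels are a description.

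Of the calcium release channels of the endoplasmic reticulum, Itpr1 and Itpr3 rose after 4OHT. Itpr1 was at 1.66 and 1.58 in untreated cells, 2.23 and 2.04 at 4OHT 8h, 2.35 and 2.38 at 4OHT 10h and 2.39 and 2.04 in inhibited cells. Itpr3 was at 4.30 and 4.06, then 4.89 and 4.62, then 4.94 and 4.82, and in inhibited cells 4.81 and 4.55. For both genes every treated array lay above the untreated arrays. Itpr1 rose by 0.52 ± 0.14 at 4OHT 8h and 0.75 ± 0.14 at 4OHT 10h (adjusted p = 0.0463 and 0.0125), and Itpr3 by 0.57 ± 0.15 and 0.70 ± 0.15 (adjusted p = 0.0462 and 0.0208). Without the filter on dim probes, neither was past the threshold at 4OHT 8h (adjusted p = 0.139 and 0.136). Itpr2 was kept through inhibited cells only. It was not well above background on either untreated array and rose at least 1.4-fold by 4OHT 10h (adjusted p = 0.0148). None of the 3 was called in inhibited cells against 4OHT 10h, where the differences were -0.15 ± 0.14, 0.12 ± 0.25 and -0.20 ± 0.15 for Itpr1, Itpr2 and Itpr3 (adjusted p = 0.583, 0.83 and 0.494).

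Ryr2, the ryanodine receptor of heart muscle, was at -3.90 and -3.67 in untreated cells and not well above background on any other array, so it was kept only through the group where it was high. Ryr2 thus had to be lower in the other groups, and its levels are a description. Ryr1, that of skeletal muscle, fell at 4OHT 8h by 0.66 ± 0.16 (adjusted p = 0.0387) and differed by -0.38 ± 0.16 at 4OHT 10h (adjusted p = 0.137, and 0.016 with a replicate block, 0.016 to 0.625 over the alternatives). It stood at -1.98 and -1.60 in untreated cells, -2.53 and -2.37 at 4OHT 8h, -2.28 and -2.06 at 4OHT 10h and -1.73 and -1.52 in inhibited cells. The inhibited arrays were higher than 4OHT 8h by 0.83 ± 0.16 (adjusted p = 0.0433). Without the filter on dim probes, the fall of Ryr1 at 4OHT 8h was not past the threshold (adjusted p = 0.117). Of 9 muscle markers, 5 were kept and 4 of these fell at 4OHT 10h, beside 14.8% of all features. Their summed level was 2.63 to 2.71 in untreated cells, 1.99 to 2.04 at 4OHT 10h and 2.49 to 2.55 in inhibited cells. Most of that sum was Tnnt1, at 2.41 and 2.51, 1.82 and 1.88, and 2.35 and 2.43 in these groups. The median of the 5 was -1.71 and -1.76, -3.11 and -3.48, and -2.86 and -3.24, and 1 was called higher in inhibited cells against 4OHT 10h. The part of the muscle markers' fall in the ryanodine receptor values was not tested.

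Of the voltage-gated calcium channel alpha1 subunits, 7 of 10 on the array were kept. At 4OHT 10h, 1 rose and 2 fell, beside 13.1% and 14.8% of all features. Cacna1h, a T-type channel that opens at low voltage, was at -1.08 and -1.31 in untreated cells, -0.67 and -0.92 at 4OHT 8h, -0.81 and -0.72 at 4OHT 10h and -0.43 and -0.47 in inhibited cells. It rose by 0.43 ± 0.12 at 4OHT 10h (adjusted p = 0.0491) and was higher by 0.74 ± 0.12 in inhibited than in untreated cells (adjusted p = 0.0156), while another kept probe gave -0.14 and -0.44 (adjusted p = 0.842 and 0.55). Cacna1a, the channel of many presynaptic terminals, fell by 0.34 ± 0.09 at 4OHT 10h, from 1.15 and 1.05 to 0.82 and 0.69 (adjusted p = 0.038). Another kept Cacna1a probe differed by -0.29 there, not past the threshold (adjusted p = 0.0845). Cacna1s, the channel of skeletal muscle that couples to Ryr1, fell by 0.95 ± 0.23, from -3.09 and -2.62 to -3.59 and -4.02 (adjusted p = 0.0303). Without the filter on dim probes, Cacna1h, Cacna1a and Cacna1s were not past the threshold at 4OHT 10h (adjusted p = 0.143, 0.132 and 0.0879).

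Among calcium channel auxiliary subunits, Cacna2d1, the alpha2delta subunit that gabapentin binds, was at -2.44 and -1.83 in untreated cells, -1.84 and -1.39 at 4OHT 8h, -1.32 and -0.79 at 4OHT 10h and -1.21 and -0.99 in inhibited cells. It rose by 1.08 ± 0.29 at 4OHT 10h (2.11-fold, adjusted p = 0.0418), while another kept probe differed by 0.75, not past the threshold (adjusted p = 0.166). The rise was also not past the threshold without the filter on dim probes (adjusted p = 0.112). Cacng6, a gamma subunit, fell by 0.53 ± 0.10 at 4OHT 8h and 0.58 ± 0.10 at 4OHT 10h (adjusted p = 0.0144 and 0.00887), from -0.96 and -0.77 to -1.50 and -1.39 at 4OHT 10h. Cacnb3, a beta subunit, was at 1.13 and 1.04 at 4OHT 10h and at 1.5041 and 1.73 in inhibited cells, a difference of 0.53 ± 0.14 that did not pass (adjusted p = 0.104, 0.0462 with a replicate block and 0.0462 to 0.352 over the alternatives).

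Sodium channels, which start action potentials, had 6 of 9 alpha and 4 of 4 beta subunit genes kept. Scn3a, an alpha subunit known from the developing brain, was at -2.77 and -2.41 in untreated cells and between -3.95 and -3.38 on all other arrays, and fell by 1.06 ± 0.23, 1.16 ± 0.23 and, in inhibited cells, by 1.33 ± 0.23 (adjusted p = 0.0279, 0.0174 and 0.0195). Another kept Scn3a probe differed by -1.485, -1.601 and -1.508 in that order, past the threshold at 4OHT 10h only (adjusted p = 0.06, 0.0407 and 0.0692). Scn3b, a beta subunit, was at -0.25 and -0.25 in untreated cells and fell by 0.44 ± 0.10 at 4OHT 8h and 0.37 ± 0.10 at 4OHT 10h (adjusted p = 0.0285 and 0.038). Scn8a was between 4.43 and 4.93 on all arrays. Its difference at 4OHT 10h was 0.34 ± 0.11 (adjusted p = 0.0642, 0.0419 with a replicate block and 0.0169 to 0.207 over the alternatives), and another kept probe fell by 0.95 (adjusted p = 0.0218), so the direction for Scn8a depended on the probe.

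Voltage-gated potassium channels, which end action potentials and hold the resting voltage, had 16 of 40 alpha subunit genes kept. At 4OHT 10h, 2 of these rose and 6 fell, beside 13.1% and 14.8% of all features. Kcng1, counted among the falls, was kept only through untreated cells. Kcnh8, of the ether-a-go-go-like subfamily, was at -5.01 and -4.82 in untreated cells, with 1 of 2 arrays well above background, and at -1.74 and -1.04 at 4OHT 8h, -1.56 and -0.93 at 4OHT 10h and -2.16 and -1.44 in inhibited cells. Every treated array lay far above the untreated ones, with fitted rises of 3.53 ± 0.36 (adjusted p = 0.00251), 3.67 ± 0.36 (adjusted p = 0.00182) and 3.12 ± 0.36 (adjusted p = 0.0062), whose size depends on the dim untreated arrays. Another Kcnh8 probe rose by 2.21 at 4OHT 8h and 2.34 at 4OHT 10h (adjusted p = 0.0097 and 0.00645). Kcnh3, of the same subfamily, went the other way, from 1.93 and 1.58 in untreated cells to 0.39 and 0.43 at 4OHT 8h and 0.60 and 0.77 at 4OHT 10h. It fell by 1.35 ± 0.13 and 1.07 ± 0.13 (adjusted p = 0.00236 and 0.00391), and inhibited cells, at 1.30 and 1.39, were higher than 4OHT 8h by 0.93 ± 0.13 (adjusted p = 0.0184) and differed from 4OHT 10h by 0.66 ± 0.13 (adjusted p = 0.0509).

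Kcns3 and Kcng1 encode electrically silent subunits, which work only in channels together with other voltage-gated subunits. Kcns3 was at -0.66 and -1.08 in untreated cells, -2.79 and -3.05 at 4OHT 8h, -2.88 and -3.02 at 4OHT 10h and -1.74 and -1.996 in inhibited cells. Its falls of 2.05 ± 0.18 and 2.08 ± 0.18 (4.14-fold and 4.22-fold, adjusted p = 0.00161 and 0.00126) were partly reversed in inhibited cells, higher than 4OHT 10h by 1.08 ± 0.18 (adjusted p = 0.0292) and lower than untreated cells by -0.99 ± 0.18 (adjusted p = 0.0212). Kcng1 was at -3.28 and -3.52 in untreated cells and between -4.91 and -4.55 on the 4OHT arrays, of which 1 in each group was well above background. It was kept only through untreated cells, where it had to be high, so its levels are a description.

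Kcnd3, a channel of the transient A-type current, differed by -0.29 ± 0.29 at 4OHT 8h (adjusted p = 0.523) and fell by 1.46 ± 0.29 at 4OHT 10h (2.74-fold, adjusted p = 0.0165). Its levels were -1.83 and -2.20 in untreated cells, -2.60 and -2.0022 at 4OHT 8h, -3.78 and -3.15 at 4OHT 10h and -3.19 and -3.09 in inhibited cells, and the difference between 4OHT 10h and 4OHT 8h was not past the threshold (-1.16 ± 0.29, adjusted p = 0.605). Kcnip2 and Kcnip3 encode KChIP proteins, which bind such channels. Kcnip2 rose by 0.53 ± 0.14 at 4OHT 8h and 0.74 ± 0.14 at 4OHT 10h (adjusted p = 0.0457 and 0.0133), while Kcnip3 fell by 0.75 ± 0.09 and 0.71 ± 0.09 (adjusted p = 0.00372 and 0.0036). The Kcnip2 rise at 4OHT 8h was not past the threshold without the filter on dim probes (adjusted p = 0.137). Kcnip3 was at -1.59 and -1.54 in untreated cells and at -2.38 to -2.24 on the 4OHT arrays. Kcnrg, which hinders the assembly of potassium channels, was not well above background at 4OHT 10h. It was lower there than in untreated cells at least 1.59-fold and higher in inhibited cells at least 1.88-fold. Kcnrg passed the filter only through untreated and inhibited cells, where it was high, so these differences are a description. Of the others of this class, Kcna7 fell by 0.63 ± 0.08 and Kcna4 rose by 0.40 ± 0.09 at 4OHT 10h (adjusted p = 0.0037 and 0.0273). Another kept Kcna7 probe differed by -0.45 there, not past the threshold (adjusted p = 0.139).

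Inward rectifiers, which pass potassium more readily inwards and stabilise the resting voltage, had 6 of 15 genes kept. At both 4OHT 8h and 4OHT 10h 2 of them fell, beside 11.5% and 14.8% of all features. Kcnj12, a strong rectifier of heart and other muscle, was at 0.90 and 0.29 in untreated cells, -1.92 and -2.18 at 4OHT 8h, -2.04 and -2.72 at 4OHT 10h and -0.13 and -0.74 in inhibited cells. It fell by 2.64 ± 0.34 at 4OHT 8h (6.24-fold, adjusted p = 0.00517) and 2.97 ± 0.34 at 4OHT 10h (7.86-fold, adjusted p = 0.0029), and was higher in inhibited cells than at 4OHT 10h by 1.95 ± 0.34 (3.86-fold, adjusted p = 0.033). Replicate 1 was the higher array in each group, and the inhibited arrays lay between the 4OHT and untreated ones. Kcnj10, the rectifier of glial cells, fell by 1.05 ± 0.23 and 1.29 ± 0.23 (adjusted p = 0.0257 and 0.0109), from -1.41 and -1.94 to -2.84 and -3.10 at 4OHT 10h. In inhibited cells it was at -1.86 and -2.27, a difference of 0.90 ± 0.23 from 4OHT 10h (adjusted p = 0.0861, 0.0141 with a replicate block and 0.0141 to 0.322 over the alternatives).

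Of the tandem-pore channels, which carry background potassium current, 12 of 14 on the array were kept. Kcnk5, whose channel opens in alkaline medium, was at 1.14 and 1.07 in untreated cells, -0.16 and -0.14 at 4OHT 8h, -0.30 and -0.40 at 4OHT 10h and 0.84 and 0.73 in inhibited cells. The groups did not overlap. It fell by 1.25 ± 0.08 (2.38-fold, adjusted p = 0.000679) and 1.45 ± 0.08 (2.74-fold, adjusted p = 0.000345), and rose in inhibited cells by 1.14 ± 0.08 against 4OHT 10h (2.2-fold, adjusted p = 0.00251). The remaining difference from untreated cells was -0.32 ± 0.08 (adjusted p = 0.0516, and 0.0263 with a replicate block). Kcnk2, a mechanically and lipid gated channel, rose by 1.06 ± 0.17 at 4OHT 8h and 0.94 ± 0.17 at 4OHT 10h (adjusted p = 0.0107 and 0.0127), and was well above background on both arrays in inhibited cells only. Kcnk6 fell by 0.29 ± 0.07 at 4OHT 8h (adjusted p = 0.0429).

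The calcium-activated channels Kcnn4 and Kcnn2 moved in opposite directions. Kcnn4, the channel of intermediate conductance known from lymphocytes and red cells, was at -5.19 and -5.82 in untreated cells, where it was not well above background, -3.75 and -4.22 at 4OHT 8h, -2.85 and -3.40 at 4OHT 10h and -1.94 and -2.15 in inhibited cells. The 4 groups did not overlap. It was higher than in untreated cells at least 1.68-fold at 4OHT 8h (adjusted p = 0.0188), at least 3.05-fold at 4OHT 10h (adjusted p = 0.00373) and at least 6.43-fold in inhibited cells (adjusted p = 0.00298). Kcnn4 passed the filter only through 4OHT 10h and inhibited cells, which favours rises in these groups. Inhibited cells were higher than 4OHT 8h by 1.94 ± 0.30 (adjusted p = 0.0215) and differed from 4OHT 10h by 1.07 ± 0.30 (adjusted p = 0.109, 0.0101 with a replicate block and 0.0101 to 0.374 over the alternatives).

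Kcnn2, a channel of small conductance, was at -1.84 and -1.93 in untreated cells, -3.26 and -3.08 at 4OHT 8h, -3.75 and -3.69 at 4OHT 10h and -3.03 and -3.09 in inhibited cells. It fell by 1.28 ± 0.09 at 4OHT 8h (2.44-fold, adjusted p = 0.000848) and by 1.83 ± 0.09 at 4OHT 10h (3.57-fold, adjusted p = 0.000261). Inhibited cells were higher than 4OHT 10h by 0.66 ± 0.09 (adjusted p = 0.0165) and lower than untreated cells by -1.17 ± 0.09 (adjusted p = 0.00219).

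HCN channels, which open on hyperpolarisation and pace rhythmic cells, had 2 of 4 genes kept. Hcn3 was at -3.14 and -3.19 in untreated cells, -4.31 and -3.54 at 4OHT 8h, -3.91 and -3.72 at 4OHT 10h and -2.43 and -2.43 in inhibited cells. The inhibited arrays were the highest, above 4OHT 10h by 1.39 ± 0.24 (2.61-fold, adjusted p = 0.0329) and above 4OHT 8h by 1.497 ± 0.24 (adjusted p = 0.0247). The differences of -0.76 ± 0.24 and -0.65 ± 0.24 after 4OHT were not past the threshold (adjusted p = 0.0786 and 0.0986). Hcn2 stayed between 5.63 and 6.05 on the 8 arrays and was not called.

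**Figure D4:**
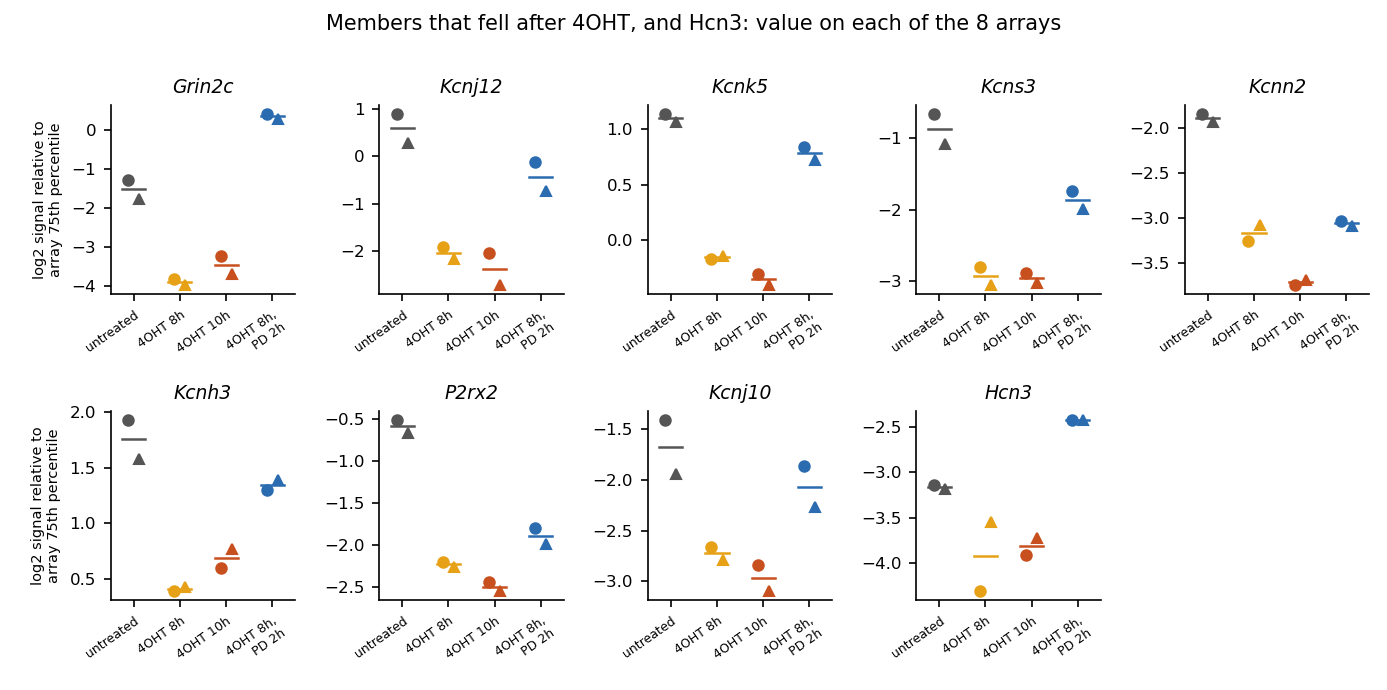
Level on each of the 8 arrays of 8 genes that fell after 4OHT and of Hcn3 (log2 signal relative to the array's 75th percentile), with replicate 1 as circles, replicate 2 as triangles and group means as bars. Inhibited cells lie between the 4OHT and untreated groups by their means for Kcnj12, Kcnk5, Kcns3, Kcnh3, P2rx2 and Kcnj10, and above untreated cells for Grin2c and Hcn3.

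The direction under 4OHT and under PD0325901 can be set side by side for pairs of comparisons whose group means share no array. The error of a gene in the fit came from all 8 arrays in each comparison, so the lists are not independent. Of the 25 members lower at 4OHT 10h than in untreated cells and the 9 higher in inhibited cells than at 4OHT 8h, 4 were in both lists, Grin2c, Kcnh3, Kcnk5 and Kcns3, which is 16.0% and 44.4% of the lists. Of the 16 higher at 4OHT 10h and the 4 lower in inhibited cells than at 4OHT 8h, Chrna9, Chrnb4 and P2rx5 were in both, 18.8% and 75% of the lists. For genes with a symbol the shares of the inhibitor's list were 61.1% and 71.3%. Kcnn4 and P2rx7 were higher in both, 22.2% of the 9 higher in inhibited cells than at 4OHT 8h, beside 7.0% for genes with a symbol. The other kept probe of P2rx7 did not rise against 4OHT 8h (-0.10, adjusted p = 0.657). For the pair of 4OHT 8h against untreated cells and inhibited cells against 4OHT 10h, Grin2c, Kcnj12, Kcnk5, Kcnn2, Kcns3 and P2rx2 were lower in the first and higher in the second, 26.1% of 23 and 66.7% of 9, beside 73.5% of the inhibitor's list for genes with a symbol. Among members P2rx7 was higher in both, 8.3% of 12 and 11.1% of 9, though its other kept probe did not rise against 4OHT 10h, beside 2.2% of the 603 genes with a symbol that were higher in inhibited cells than at 4OHT 10h.

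Single arrays set the mean of some members. In 9 members the arrays of a group differed by over 1.5, and none of these was called in any comparison. Kcnh2, a channel of cardiac repolarisation, was at 6.87 on inhibited replicate 1 (processed signal 36085) and at -1.86 on inhibited replicate 2 (91.9), and between -2.23 and -0.96 elsewhere. Its difference from 4OHT 10h was 3.59 ± 2.59 (adjusted p = 0.491), and without inhibited replicate 2 it was past the threshold (adjusted p = 0.003, and 0.003 to 0.77 over the alternatives), so the value rests on that 1 array. Chrnb1, a subunit of the muscle receptor, was at -1.67 on 4OHT 8h replicate 2 and between -5.49 and -4.08 on the other 7 arrays. Kcnk1 was lower on replicate 1 than on replicate 2 in each group, and its groups overlapped. In all, 38 members had the same sign of the replicate difference in each group, and for 5 of them its mean was over 1. The summed level of 10 primitive endoderm markers was also higher on replicate 1 than on replicate 2 in each group. It was 6.08 and 5.17 in untreated cells, 5.94 and 4.82 at 4OHT 8h, 5.97 and 4.94 at 4OHT 10h and 6.48 and 5.48 in inhibited cells. The part of this in the members' replicate differences was not tested.

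**Figure D5:**
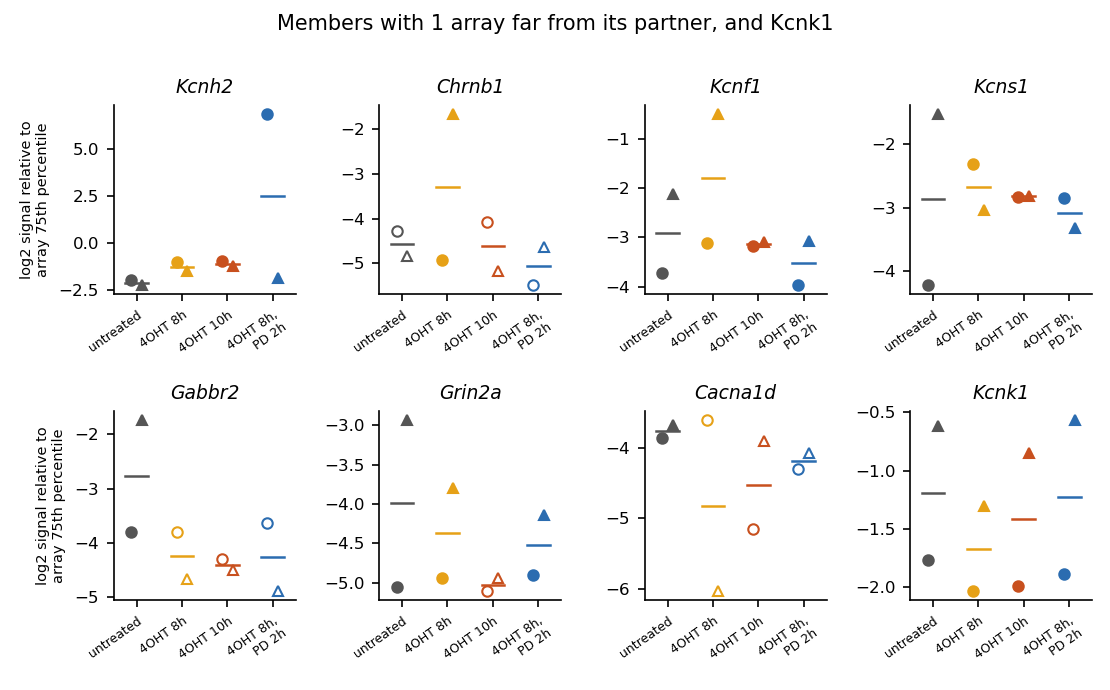
Level on each array of 7 genes in which 1 array lies far from its partner, and of Kcnk1 (log2 signal relative to the array's 75th percentile), with replicate 1 as circles, replicate 2 as triangles, bars for group means and open symbols where a group was not well above background on both arrays. Kcnh2 reaches 6.87 on 1 inhibited array against -1.86 on the other, and Kcnk1 is lower on replicate 1 in all 4 groups.

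Genes that work with these channels moved in both directions as well. Of 45 other ion channel genes tested, 8 rose and 12 fell at 4OHT 10h, with a median of -0.23. For this and the lists that follow, 13.1% of all features rose and 14.8% fell, with a median of -0.05. Examples are the chloride channel Clcn2 (1.06 ± 0.08, adjusted p = 0.000772), the volume-regulated channel subunit Lrrc8a (0.86 ± 0.11, adjusted p = 0.00392) and the calcium-activated cation channel Trpm4 (-1.07 ± 0.10, adjusted p = 0.00164). Each of these 3 moved back under PD0325901 against 4OHT 10h, by -0.58 ± 0.08, -0.64 ± 0.11 and 0.83 ± 0.10 (adjusted p = 0.017, 0.0301 and 0.0119). That list had 3 rises and 2 falls under PD0325901.

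Of 20 transmitter receptors coupled to G proteins, 5 rose and 4 fell at 4OHT 10h. The beta adrenergic receptor Adrb1 rose by 3.74 ± 0.40 (adjusted p = 0.00231) and fell under PD0325901 against 4OHT 10h, with a difference of -2.72 ± 0.40 (adjusted p = 0.0203). The purine receptor P2ry2 rose by 1.54 ± 0.16 and P2ry6 fell by 0.98 ± 0.08 (adjusted p = 0.00224 and 0.00117).

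Of 29 calcium pumps, exchangers and store-entry genes, 2 rose and 7 fell. The 2 that rose act together in store-operated calcium entry, the channel Orai1 (1.25 ± 0.10, adjusted p = 0.000956) and the calcium sensor Stim2 (1.12 ± 0.18, adjusted p = 0.0088). None of the 29 was called under PD0325901 against 4OHT 10h by limma. Of 48 scaffold and auxiliary proteins 7 rose, among them the postsynaptic scaffold Shank3 (2.82 ± 0.14, adjusted p = 0.0003), and 11 fell. Of 17 genes for REST, a repressor of neuronal genes, and its corepressors, 1 rose and 7 fell, and Rest itself fell by 0.48 ± 0.08 (adjusted p = 0.00771), from 5.31 and 5.18 to 4.79 and 4.74. Among neuron markers, Gad1 and Elavl4 rose (2.34 ± 0.55 and 0.34 ± 0.09, adjusted p = 0.0279 and 0.0416) and Slc32a1 and Tubb3 fell (-2.26 ± 0.16 and -1.48 ± 0.10, adjusted p = 0.000711 and 0.000623). The part of these in the members' changes was not tested.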

How the data were processed

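Total RNA, 100 ng per sample per the labels' protocols, was hybridised to 8 single-colour Agilent arrays on 1 slide. Per the file headers, Feature Extraction 11.0.1.1 made the deposited processed signal, an intensity already corrected for background, and the array design (028005) uses build mm9. Its accessions were named through RefSeq (GRCm38.p6), and 27656 of 55681 probes had 1 symbol. Log2 of the processed signal minus each array's 75th percentile was fitted with limma 3.58.1 in R 4.3.3 with a mean per group (residual degrees of freedom 4), without outlier spots. Probes had to be well above background on both arrays in 1 group or more, and the kept probe with the highest mean stood for its gene. A call is an adjusted p below 0.05 (two-sided, Benjamini-Hochberg over all features). Kcnab1 lost its only spot on some arrays and was tested only between 4OHT 10h and inhibited cells. Signals well above background began at 6.68 to 9.58 on replicate 1 and at 14.8 to 20.0 on replicate 2.

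The members and lists were chosen with earlier results of these data known. Named are the 10 largest called changes each way after 4OHT (against untreated cells) and after PD0325901 (against 4OHT 10h), 4 each way in the others, the kept member with the smallest adjusted p of each sub-family at 4OHT 10h, and a fixed list. Other names were chosen after their values were seen. Deviations from group means correlated at 0.287 to 0.356 between same-numbered arrays in all 6 pairs of groups, so the replicate numbers, which are also rows of the slide, pair the samples. The main fit left this pairing out, and only the replicate block took it in. Each group filled a column of the slide, so column and group cannot be told apart. The fit was tested on simulated data, and alternatives changed the scaling, background correction, filter, block, prior and arrays. Some items are not reported here.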

Additional observations from a re-analysis of the deposited data

How the results depend on the processing

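Over 12 alternative settings the count of members called stayed within 1.5 times in 10 settings for 4OHT 8h against untreated cells, 11 for 4OHT 10h against untreated cells, 9 for inhibited cells against 4OHT 10h, 9 against 4OHT 8h, 9 against untreated cells, and 12 for 4OHT 10h against 4OHT 8h (0 throughout). Without a filter on dim probes, where more genes were tested, the counts for the first 5, in that order, were 17, 27, 4, 5 and 10. With only the groups compared, and so fewer arrays, they were 19 for 4OHT 8h against untreated cells and 6, 6 and 14 for inhibited cells against 4OHT 10h, 4OHT 8h and untreated cells. The replicate block gave 48 and 56 for the 4OHT groups and 19, 26 and 40 for inhibited cells in the same order, with 0 calls lost and 13, 15, 8, 13 and 16 gained. For the 4OHT groups that is 44.4% and 51.9% of members tested, beside 31.9% and 39.0% of all features with that block. The counts for the other alternatives have no share over all features beside them, so they describe the stability of the calls only. Leaving out 1 array gave 18 to 27, 23 to 39, 4 to 9, 5 to 11, 12 to 22 and 0 to 0. For 4OHT 8h against untreated cells, dropping untreated replicate 1 or 2 gave 22 or 19, and dropping either 4OHT 8h array 18. For 4OHT 10h against untreated cells, dropping 4OHT 10h replicate 1 or 2 gave 24 or 23. Against 4OHT 8h, inhibited cells had 6 calls when either 4OHT 8h array was dropped, 7 for either 4OHT 10h array and 5 for either inhibited array. Against untreated cells they had 16 or 12 when untreated replicate 1 or 2 was dropped, and 14 or 13 when inhibited replicate 1 or 2 was. With each array centred on its median the median of all features moved to 0.10 and 0.14 at 4OHT 8h and 4OHT 10h against untreated cells and to -0.12 in inhibited cells against 4OHT 10h. No call of a named gene reversed its sign in the comparisons of 4OHT 8h and 4OHT 10h with untreated cells and of inhibited cells with 4OHT 10h. Single genes were not followed over the alternatives in the other comparisons. Of 32 named calls for 4OHT 8h, 13 held in every alternative, as did 16 of 37 for 4OHT 10h. For inhibited cells against 4OHT 10h 4 of 11 held, Chrna9, Chrnb4, Grin2c and Kcnk5. Some called members had a further kept probe. It passed in the same direction for 2 of 6 members (4OHT 8h), 3 of 9 (4OHT 10h) and 0 of 1 (inhibited cells against 4OHT 10h), and in the opposite direction for 0. Among members not called by the probe used, a further probe was called for Kcnk4 (-1.46 at 4OHT 8h, -1.33 at 4OHT 10h, and 1.14 in inhibited cells against 4OHT 8h, adjusted p = 0.00856, 0.0091 and 0.0409), P2rx3 (-0.46 at 4OHT 10h, 0.0168) and Kcnmb4 (1.21 in inhibited against untreated cells, 0.0222), besides Scn8a and Grm4. The brightness of a probe over background limits what can be said of genes below it, more so on replicate 2.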
